A study of Homo sapiens with 95 samples.

Results

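Cells with a CRISPR knockout of FAT1 were compared with their GFP control while both were exposed to 1 of 3 carcinogens. The comparison uses 18 of the 95 samples of the series, 9 of FAT1 and 9 of GFP, with 3 of each genotype for every carcinogen. All 18 are AALE cells, which are human bronchial epithelial cells made immortal in culture, grown in 24-well plates and profiled by sparse full length (SFL) RNA-seq, in which barcoded libraries are pooled and sequenced at low depth. The carcinogens were cigarette smoke condensate (CSC) at 24 μg/ml, benzo[a]pyrene (BaP) at 173 μM and the tobacco nitrosamine NNK at 490 μM. The knockout was made with Cas9 and a guide, while GFP cells were transfected with the PX458 plasmid, which carries Cas9 and EGFP, with no guide RNA. There is 1 FAT1 line and 1 GFP line, and whether either is a clone or a pool is not given in the sources used here, so an effect of losing FAT1 and any other difference between the lines cannot be told apart. FAT1 and GFP samples with the solvent DMSO (3 each) and samples of a CDKN2A knockout with the same carcinogens (9) were used for comparison. Levels are also given for HcRed cells with the same carcinogens. These carry an empty vector with the reporter HcRed, the study's control for overexpression, while GFP was its control for the knockouts.

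FAT1 encodes a very large cadherin of the cell surface, a member of the FAT and Dachsous family, which in flies and mammals takes part in cell contact, planar polarity and growth control through the Hippo pathway. When Hippo kinases are inactive, YAP and TAZ enter the nucleus and drive target genes with TEAD factors. FAT1 is often mutated in squamous cancers, lung included. The carcinogens act on another pathway: polycyclic aromatic hydrocarbons such as BaP, which smoke condensate also holds, bind the aryl hydrocarbon receptor (AhR), which induces cytochrome P450 genes that convert them, while NNK is a nitrosamine and not a ligand of that kind.

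The 18 libraries held between 338978 and 1517412 counted reads, with medians of 788392 in FAT1 and 774472 in GFP (difference of mean log2 library size 0.01, exact permutation test within carcinogen, 2-sided, p = 0.959). Depth differed more between the carcinogens, with medians of 960969 reads for CSC, 502119 for BaP and 658752 for NNK. A count of 3 corresponded to between 1.98 and 8.85 CPM (counts scaled to the library's total), and 13861 of the 27978 listed genes had a mean count above 1 and were tested. On the first principal component (29.4% of the variance) FAT1 and GFP samples did not overlap, and on the second (8.63%) the shallowest library, replicate 3 of GFP with NNK, stood apart from the others. All 14 markers of bronchial basal cells were detected, with summed levels of 6120 to 8650 CPM in FAT1 and 8750 to 11100 CPM in GFP. Markers of luminal secretory cells summed to at most 5.74 CPM (SCGB3A1 and BPIFA1 at 0), of endothelial cells to at most 5.06 CPM (CDH5 at 0), of immune cells to 7.37 to 17 CPM in FAT1 and 0 to 14.2 CPM in GFP (CD3E at 0), of fibroblasts to 31.7 to 71.4 and 13.4 to 53.7 CPM (COL3A1 and LUM at 0), and of ciliated cells to 15.7 to 40.6 and 9.56 to 21.1 CPM. In bulk samples, fewer cells of a type and less RNA per cell cannot be told apart. The study calls its replicates biological, and what separates them (cultures, wells or days) is not given in the sources used here, so p-values measure the spread between these samples within 1 line of each genotype.

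FAT1 itself (chr4:187508948-187647876, hg19, minus strand) was lower in the knockout with each carcinogen. With CSC the FAT1 samples had 104, 73 and 93 reads and the GFP samples 380, 583 and 397. With BaP the counts were 117, 27 and 42 against 271, 155 and 129, and with NNK 54, 115 and 86 against 294, 214 and 139. Scaled for depth as log2 CPM (computed with a prior count of 2), the knockout samples lay between 6.15 and 6.99 and the GFP samples between 8.06 and 8.70, with no overlap. Over the 3 carcinogens FAT1 fell by 1.85 on the log2 scale (SE 0.07, limma adjusted p = 1.56e-35), which is 3.60-fold, and the change was -1.89 with CSC, -1.71 with BaP and -1.90 with NNK. Reads remained in every knockout sample, at a median of 99.4 CPM against 380 CPM in GFP. The other control line of the series, HcRed, had a median of 597 CPM with these carcinogens, and the CDKN2A knockout 977 CPM. The level in GFP was thus the lowest of the 3 lines in which FAT1 was not targeted.

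Of the family of FAT1, 7 of 10 listed members were tested. Apart from FAT1, FJX1 (a kinase that modifies these cadherins), CELSR2 and FAT2 were higher, by 0.82 (SE 0.19), 0.36 (SE 0.06) and 0.34 (SE 0.04) on the log2 scale. FAT2 had the most reads of the 3, at 222 to 764 in FAT1 and 144 to 853 in GFP, and it passed the threshold with each carcinogen. FAT4 (log2 difference 0.11), CELSR1 (-0.08) and CELSR3 (0.04) did not pass. FAT3, DCHS1 and DCHS2 had at most 2 reads in any of the 18 samples and were not tested.

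**Figure D1:**
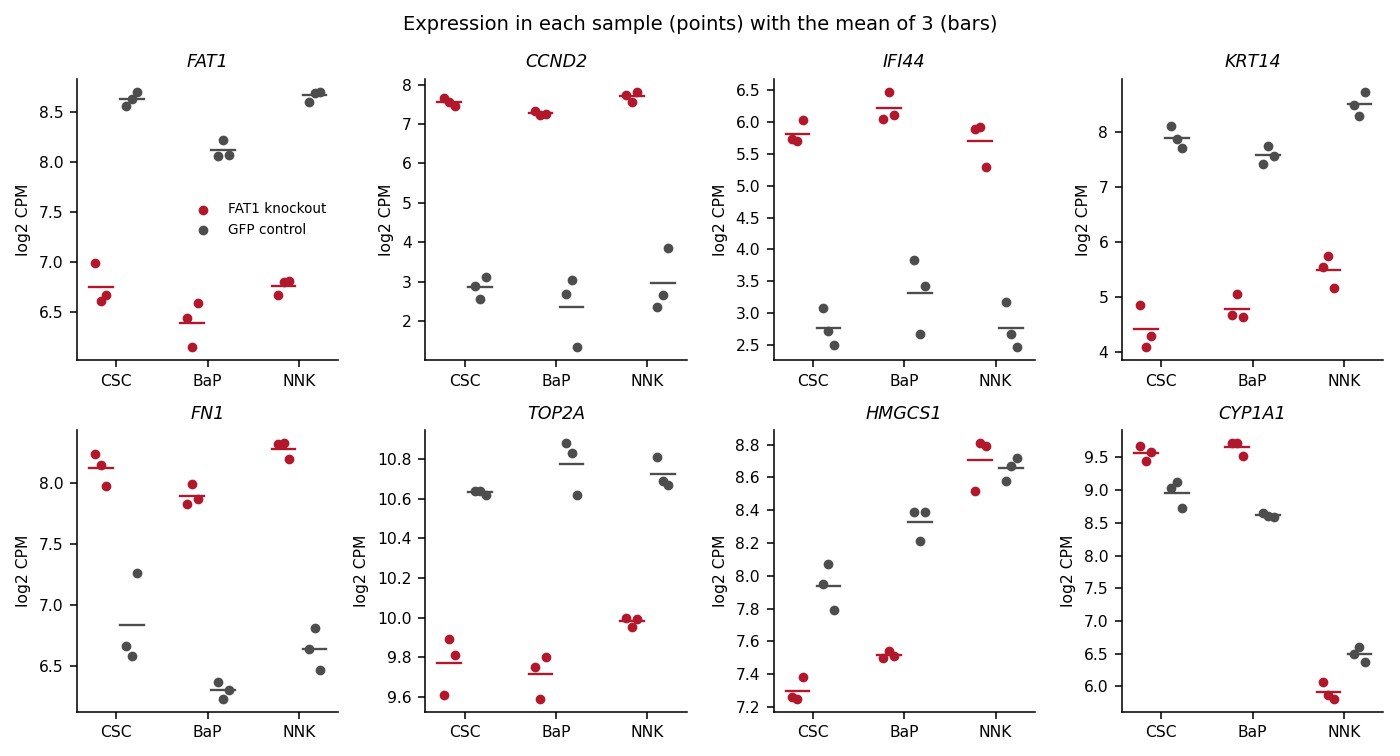
Each point is 1 sample and each bar the mean of 3, as log2 CPM, for 8 genes by carcinogen in FAT1 knockout (red) and GFP (grey) cells. The 9 FAT1 and 9 GFP samples do not overlap for FAT1, CCND2, IFI44, KRT14, FN1 and TOP2A, while HMGCS1 separates them with CSC and BaP and not with NNK, and CYP1A1 is higher in FAT1 with CSC and BaP and lower with NNK.

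The question of the comparison is which genes differ between FAT1 and GFP cells whatever the carcinogen, and which differ with 1 carcinogen alone. With carcinogen as a covariate, 5676 of 13861 genes (40.9%) passed an adjusted p of 0.05 (limma on voom-transformed counts, Benjamini-Hochberg over all genes tested), 2746 higher (19.8%) and 2930 lower (21.1%) in FAT1. Most of these differences were small: 2943 were under 1.5-fold, and 1150 were over 2-fold (511 higher and 639 lower). Within single carcinogens 3310 genes passed with CSC (23.9%, 10.6% higher and 13.3% lower), 2909 with BaP (21.0%, 9.65% and 11.3%) and 2397 with NNK (17.3%, 7.40% and 9.89%). Without replicate 1 of FAT1 with BaP the BaP count was 1713, without replicate 1 of GFP with BaP it was 1813, and without replicate 1 of GFP with NNK the NNK count was 1521. With all libraries thinned to the depth of the shallowest, an alternative chosen after seeing the data, the counts were 1241 for CSC, 1570 for BaP and 1275 for NNK, so their order moved with depth. Past the threshold in the same direction with all 3 carcinogens were 1274 genes (9.19%), 488 higher (3.52%) and 786 lower (5.67%). Across those genes the median size of the difference was 0.72 with CSC, 0.80 with BaP and 0.75 with NNK on the log2 scale.

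Among the genes that passed with each carcinogen and whose FAT1 and GFP samples did not overlap within any of them, the 12 largest rises were led by CCND2 (cyclin D2, a partner of CDK4 and CDK6 at the entry into the cell cycle, chr12:4378937-4414519). Its counts were 58 to 219 (median 161) in FAT1 and 0 to 6 (median 4) in GFP, a log2 difference of 5.32 (SE 0.26, limma adjusted p = 1.02e-29), and 5.23, 5.53 and 5.29 with CSC, BaP and NNK. GFP and CDKN2A were both low here, at medians of 3.87 and 2.89 CPM. HcRed cells had a median of 128 CPM, near the 186 CPM of FAT1. FKBP10, a chaperone of collagen folding, had 10 to 46 reads in FAT1 and 0 to 2 in GFP. The CDKN2A and HcRed lines had medians of 42.4 and 78.3 CPM for it, against 0 CPM in GFP. SMARCA1, a chromatin remodeller of the ISWI type, rose by 2.47 (SE 0.21), and GFP had its lowest median there as well (7.66 CPM, against 52.8 in FAT1, 68.0 in CDKN2A and 44.8 in HcRed). For these 3 genes GFP was thus low beside HcRed, and for all but CCND2 low beside CDKN2A as well.

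Of the other 8 rises, 7 had their highest median level in FAT1 among the 4 lines, HERC5 being the exception. IFI44, induced by interferon, had 29 to 89 reads in FAT1 and 1 to 12 in GFP (log2 difference 3.25, SE 0.25, limma adjusted p = 4.36e-19), and medians of 57.6 CPM in FAT1, 3.95 in GFP, 25.2 in CDKN2A and 12 in HcRed. IFIT2, which binds RNA in the antiviral response, had 24 to 167 reads in FAT1 and 3 to 18 in GFP (difference 2.58), and a median of 118 CPM against 13.9 to 16.5 CPM in the other lines. IFIT3 (2.14), IFI6 (2.12) and HERC5, the ligase that attaches ISG15 to proteins (2.4), belong to the same response, and HERC5 had 36.8 CPM in CDKN2A cells and 25.8 CPM in FAT1 cells. The remaining members of the 12 were SEMA3B, a secreted semaphorin (2.55), TNFAIP2, induced by TNF (2.17), and CYBA, a subunit of the NADPH oxidase (2.17). CYBA had a median of 27.8 CPM in FAT1 and 2.60 to 9.59 CPM in the other lines. SEMA3B was nearly as high in HcRed (25.5 CPM) as in FAT1 (31.0 CPM). The absence of overlap within any carcinogen, in the same direction, held for 12.1% of all genes tested, and of overlap between all 9 and 9 samples for 7.38%. IFI6 was the only one of the 12 rises whose 9 and 9 samples overlapped.

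The 12 largest falls included 5 zinc finger genes of chromosome 19. ZNF347 (chr19:53627325-53662328) had 0 to 3 reads in FAT1 and 7 to 42 in GFP, and ZIK1, ZSCAN18, ZNF793 and ZNF681 had at most 5 reads in any FAT1 sample and at least 6 in every GFP sample. ICA1, an autoantigen of islet cells that takes part in vesicle traffic, had 0 to 2 reads against 8 to 36, and GALNT5, an enzyme that starts O-linked glycosylation, 0 to 7 against 18 to 89. TNS1 (tensin, which links integrins to actin) had 0 to 5 against 8 to 29, and the long non-coding RNA LINC00707 0 to 4 against 8 to 58. At such counts in FAT1 the fitted fold change depends on the prior count, so the reads are the more direct description. KLK5, a serine protease of the epidermis, and GBP6, a guanylate-binding protein, had 0 to 3 reads in FAT1 and at least 10 in every GFP sample. Both were low in CDKN2A cells too (medians of 1.16 and 1.94 CPM, beside 1.84 and 1.45 CPM in FAT1), while HcRed had 24.0 and 9.24 CPM.

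KRT14, the type I keratin of basal cells (chr17:39738531-39743147), had the most reads of the 12 falls. Its counts with CSC were 22, 11 and 16 in FAT1 and 277, 342 and 197 in GFP. They were 32, 12 and 10 against 173, 111 and 90 with BaP, and 24, 54 and 26 against 272, 162 and 142 with NNK. It fell by 3.17 on the log2 scale (SE 0.13, limma adjusted p = 2.13e-34), with medians of 26.6 CPM in FAT1, 225 in GFP, 201 in CDKN2A and 380 in HcRed. FAT1 thus had the lowest median of the 4 lines.

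**Figure D2:**
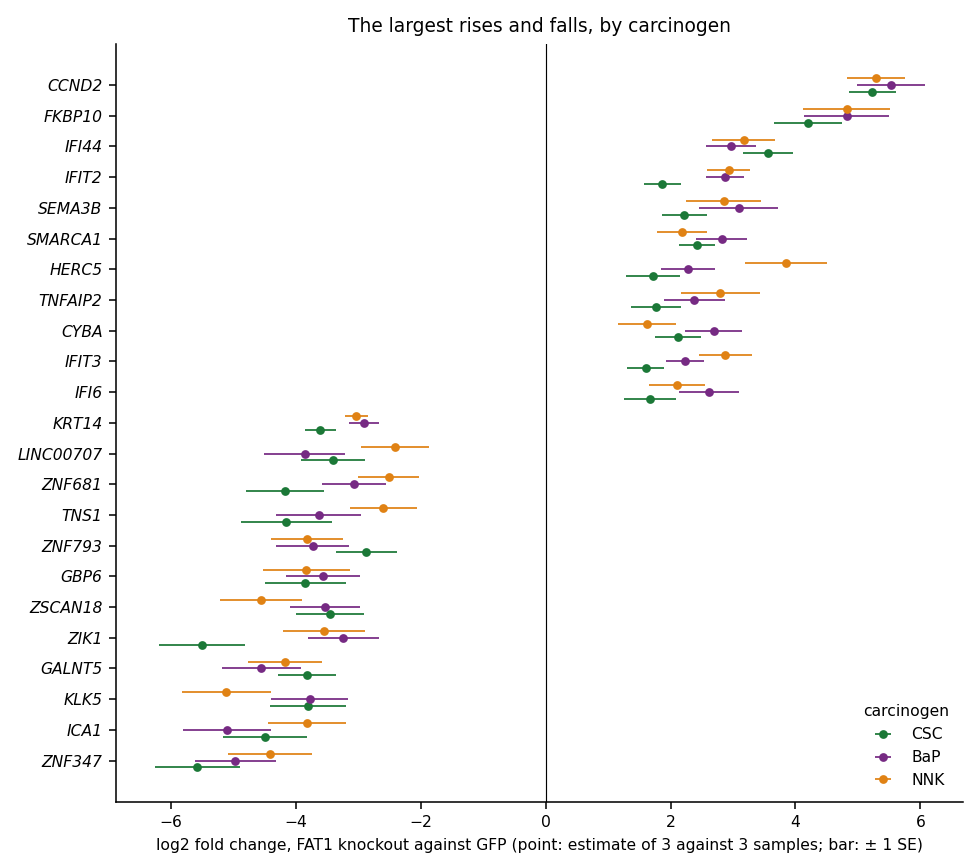
Log2 fold change of FAT1 against GFP with each carcinogen for 11 of the 12 largest rises and the 12 largest falls, as the estimate of 3 against 3 samples with 1 SE. The genes were chosen for passing in the same direction with CSC, BaP and NNK, so each lies on 1 side of 0 by choice. Values run from CCND2 at the top (5.23 to 5.53) to ZNF347 at the bottom (-5.58 to -4.41).

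Interferon-stimulated genes were higher in FAT1 as a group. Of 22 listed genes 16 were tested, 11 rose over the 3 carcinogens and 0 fell, where 19.8% of all genes rose, and the median difference was 1.57 on the log2 scale against 0.01 over all genes tested. The list was chosen with earlier results of these data known, so its direction is not independent evidence. IFIT1, which recognises viral RNA caps, had 8 to 47 reads in FAT1 and 0 to 3 in GFP (difference 3.86, SE 0.39, limma adjusted p = 1.05e-13). IFI44L (3.28) and OASL, an oligoadenylate synthetase-like protein (3.08), rose by similar amounts from lower counts. The ubiquitin-like protein ISG15 (1.75), the antiviral GTPase MX1 (1.39) and the RNA sensor DDX58 (1.11) rose less, and IRF7 least (0.47). Named after their values were seen, OAS3 (0.09), OAS1 (-0.38) and the RNA sensor IFIH1 (-0.07) did not pass, so the rise did not cover the list. Within carcinogens 10 members rose with CSC, 10 with BaP and 8 with NNK, 8 of them with all 3, and medians were 1.36, 2.03 and 1.01. Of all genes 10.6%, 9.65% and 7.40% rose, and 3.52% with all 3. With CDKN2A in place of GFP as the comparison, 10 members were higher in FAT1 (median 1.08), where 26.9% of all genes were. The summed immune cell markers given above reached higher in FAT1 than in GFP, with overlap, and their part in the result was not tested.

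The promoters of these genes are shown because interferon acts through a short element, GAAA followed after any 2 bases by GAAA on either strand, that was found within 250 bases before the start of 10 of the 17 members matched in RefSeq (GRCh38.p14) and of 3.07% of 27305 promoters. Of the 8 tested members with a match 6 rose, beside 11 of the 16 tested members of the whole list. Capitals mark the matches, and each sequence is written in the direction of its gene.
IFIT1, chr10:89392482-89392554, plus strand: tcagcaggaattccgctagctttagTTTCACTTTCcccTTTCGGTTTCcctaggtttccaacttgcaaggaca
IFIT3, chr10:89327816-89327909, plus strand: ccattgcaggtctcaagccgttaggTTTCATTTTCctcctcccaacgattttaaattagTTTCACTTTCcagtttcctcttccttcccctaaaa
IFI6, chr1:27672251-27672373, minus strand: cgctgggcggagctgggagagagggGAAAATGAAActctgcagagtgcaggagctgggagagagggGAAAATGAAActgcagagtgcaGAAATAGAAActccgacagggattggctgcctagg
IFIT1 and IFIT3 hold 2 matches each and IFI6 holds 3. A match describes the letters and is no evidence of binding.

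Keratins moved in both directions, where 19.8% of all genes rose and 21.1% fell. Of 13 tested, 4 rose and 6 fell, and the risers were keratins of simple epithelia (KRT8 by 1.28, KRT18 by 0.63 and KRT19 by 0.46) with KRT80 (0.83). The fallers were keratins of basal and activated squamous cells: after KRT14 these were KRT16 (-1.76), KRT6B (-1.25, from at most 7 reads), KRT17 (-0.78), KRT6A (-0.50) and KRT5 (-0.29). KRT6B lost the call in 5 of 10 alternative settings and in 6 of 18 fits that left out a library (-1.47 to -0.74). KRT8 had 94 to 261 reads in FAT1 and 33 to 119 in GFP. KRT5, the partner of KRT14, fell far less than KRT14 and kept 957 to 3798 reads per sample. KRT6A and KRT6B are close copies whose reads could be split in counting, and KRT8 and KRT18 lie next to each other on opposite strands, which cannot be told apart where counting did not use strand. All 4 risers and 5 of the 6 fallers passed with each carcinogen, where 3.52% of all genes rose and 5.67% fell with all 3.

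Genes that anchor basal cells to the basement membrane were lower. Of 17 hemidesmosome, laminin and integrin genes 11 fell and 4 rose, where 21.1% and 19.8% of all genes did, with a median of -0.31, and 6 fell with all 3 carcinogens (5.67% of all genes). The integrin subunits ITGAV (-0.87), ITGA6 (-0.80) and ITGB4 (-0.59) and the hemidesmosome linker DST (-0.67) fell most. ITGA6 had 96 to 468 reads in FAT1 and 215 to 1061 in GFP, and DST 417 to 1709 and 627 to 2800. ITGB8 (0.64), the plakin PLEC (0.38), ITGA5 (0.30) and ITGA2 (0.21) rose. Of the 14 basal cell markers 11 fell and 1 rose.

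Genes of cell junctions and of the mesenchymal state changed in small numbers, beside 19.8% higher and 21.1% lower over all genes. In the list of 17 junction genes E-cadherin CDH1 (-0.50), P-cadherin CDH3 (-0.46), CLDN1 (-0.53) and TJP1 (-0.41) were among 6 that fell, and CLDN4 (0.80) and EPCAM (0.46) rose. Of 10 mesenchymal genes 4 rose and 1 fell. Fibronectin, FN1, had 99 to 337 reads in FAT1 and 29 to 145 in GFP and rose by 1.48 (SE 0.08, limma adjusted p = 1.23e-26). N-cadherin, CDH2, rose by 2.76 from counts of 0 to 4 in GFP to 2 to 12 in FAT1, and TGFBI, a matrix protein induced by TGF-beta, rose by 0.66. Vimentin, VIM, which marks mesenchymal cells, fell (-0.76, with 1 to 20 reads in FAT1 and 3 to 28 in GFP). COL1A1 passed with a difference of 0.38 over the 3 carcinogens, at 1.15 with BaP, 0.05 with CSC and -0.02 with NNK, and lost the call in 8 of 12 alternative settings and in 8 of 18 fits that left out a library (0.28 to 0.51). Compared with CDKN2A cells, FN1 was lower in FAT1 (-0.53). The fibroblast sums given above overlapped between FAT1 and GFP, and COL3A1 and LUM were at 0.

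Among cornified envelope genes, PPL (0.73) and EVPL (0.57) rose, and SPRR1B (-2.14, from at most 5 reads) and CSTA (-0.86) fell, 3 rising and 4 falling of 9. Over all genes 19.8% rose and 21.1% fell. Of 6 airway secretory and defence genes tested, 0 passed in either direction.

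Targets of YAP, on which FAT1 bears through Hippo, were mixed. Of 21 tested 8 rose and 4 fell, with a median of 0.10 beside 0.01 over all genes. Of all genes 19.8% rose and 21.1% fell. CYR61, a matricellular protein and a standard YAP target, had 32 to 183 reads in FAT1 and 7 to 79 in GFP and rose by 1.57 (SE 0.14, limma adjusted p = 2.38e-16), and by 1.05 with CSC, 2.12 with BaP and 2.08 with NNK. Its relative CTGF rose by 1.17, with 2 to 40 reads in FAT1 and 2 to 10 in GFP, so the groups overlapped, and the change was 0.42 with CSC. RBMS3 (1.64) and FJX1 (0.82) also rose, while IGFBP3 (-1.67, from at most 8 reads) and the ecto-nucleotidase NT5E (-0.91) fell. Against CDKN2A cells the same list had 4 higher and 12 lower members and a median of -0.37, with CTGF at -1.67 and CYR61 at -0.40. In that comparison 26.9% of all genes were higher and 27.6% lower. Of 25 core Hippo and TEAD genes 6 were higher and 6 lower, and with correction for GC content and length 9 were higher and 2 lower. The largest were NF2 (0.61), TAOK2 (0.53), TEAD3 (-0.76) and MAP4K4 (-0.63). The promoter of CTGF (CCN2 in RefSeq) is shown because it holds 3 copies of the TEAD element GGAATG in 250 bases. The element was found in 6 of 16 matched YAP targets and in 11.9% of all promoters, and 2 of the 5 tested targets that hold it rose.
CTGF, chr6:131951437-131951566, minus strand: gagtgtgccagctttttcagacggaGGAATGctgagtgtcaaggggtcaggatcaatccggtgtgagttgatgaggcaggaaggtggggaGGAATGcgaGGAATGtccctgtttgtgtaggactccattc

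Other signalling lists also held changes in both directions, beside 19.8% higher and 21.1% lower over all genes. Among 9 Wnt targets the Wnt inhibitor DKK1 had 24 to 108 reads in FAT1 and 4 to 29 in GFP (difference 2.11, SE 0.17), MYC rose by 0.74 and ZNRF3 by 0.68, and APCDD1 fell by 2.44 from at most 4 reads. Among 21 ERK feedback and AP-1 genes 6 rose and 4 fell, with the immediate early genes FOS (1.35) and EGR1 (1.02) up and ETV5 (-1.36) down. Of 18 actin and SRF target genes 5 rose and 7 fell: TPM2 (1.72), ACTG1 (0.67), vinculin VCL (0.67) and ENAH (0.51) were higher and TPM1 (-0.57) lower. The receptor NOTCH1 rose by 1.05 in a list of 14 Notch genes with 4 rises and 2 falls. In the plasminogen system PLAT, the tissue activator, rose by 1.94, the inhibitors SERPINB2 (-2.92) and SERPINE2 (-1.34) fell, and TIMP2, an inhibitor of matrix proteases, rose by 1.03. Of 9 genes of the IL-1, CXCL and NF-kB list 3 rose and 1 fell, the receptor antagonist IL1RN (-2.53, with 0 to 3 reads in FAT1 and 3 to 20 in GFP).

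Cell cycle genes were mostly lower in FAT1. Of 20 mitosis genes 13 fell and 2 rose, with a median of -0.34, and 6 fell with all 3 carcinogens, beside 21.1% lower, 19.8% higher and 5.67% lower with all 3 over all genes. TOP2A, which untangles chromosomes, had 301 to 1194 reads in FAT1 and 546 to 2361 in GFP and fell by 0.90 (SE 0.04, limma adjusted p = 1.74e-34), and the kinetochore motor CENPE fell by 0.72. KIF11 (0.21) and AURKB (0.37) rose. Of 20 DNA replication and E2F genes 13 fell and 0 rose (median -0.26), among them the polymerase subunit POLA1 (-1.36), cyclins CCNE1 (-0.86) and CCNE2 (-0.51) and the helicase subunit MCM6 (-0.63). Compared with CDKN2A cells, in which a brake on the cell cycle was targeted, 13 of the 20 mitosis genes were higher in FAT1 and 3 lower (median 0.34). In that comparison 26.9% of all genes were higher and 27.6% lower. Of 20 p53 targets 9 rose and 2 fell (median 0.31). The death receptor FAS rose by 0.95, GDF15 by 0.86, FDXR by 0.73 and TIGAR by 0.70, while CDKN1A, the cell cycle inhibitor, fell by 0.31, with -0.52 for CSC, -0.08 for BaP and -0.29 for NNK.

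Metabolic and stress lists held mostly falls. Of 18 cholesterol synthesis genes 14 fell and 0 rose, with a median of -0.49, where 21.1% of all genes fell. IDI1 had 31 to 253 reads in FAT1 and 150 to 422 in GFP and fell by 1.10 (SE 0.08, limma adjusted p = 2.20e-19), and MSMO1 (-0.94), MVD (-0.91) and LSS (-0.86), other enzymes of the pathway, followed. Of 20 NRF2 targets 12 fell and 2 rose (21.1% and 19.8% over all genes), with a median of -0.72. NQO1, a quinone reductase, fell by 1.35 (SE 0.07) with no overlap between FAT1 and GFP samples, GCLC, which limits glutathione synthesis, by 1.05, and the cystine carrier SLC7A11 by 0.86. AKR1C1 fell by 1.60 from at most 11 reads, and is one of several near-identical genes. GSR (0.32) and TALDO1 (0.20) rose. Of 18 genes of the ATF4 amino acid response 11 fell and 3 rose (median -0.33). PSAT1, of serine synthesis, had 41 to 193 reads in FAT1 and 143 to 770 in GFP and fell by 1.78 (SE 0.07, limma adjusted p = 2.07e-36). VLDLR (-1.54) and CHAC1 (-1.29) fell, and DDIT4 (0.66) and the amino acid carrier SLC7A5 (0.45) rose. PSAT1 did not pass against CDKN2A cells (-0.14), whereas SLC7A11 was lower in FAT1 than in either line (-2.09 against CDKN2A).

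**Figure D3:**
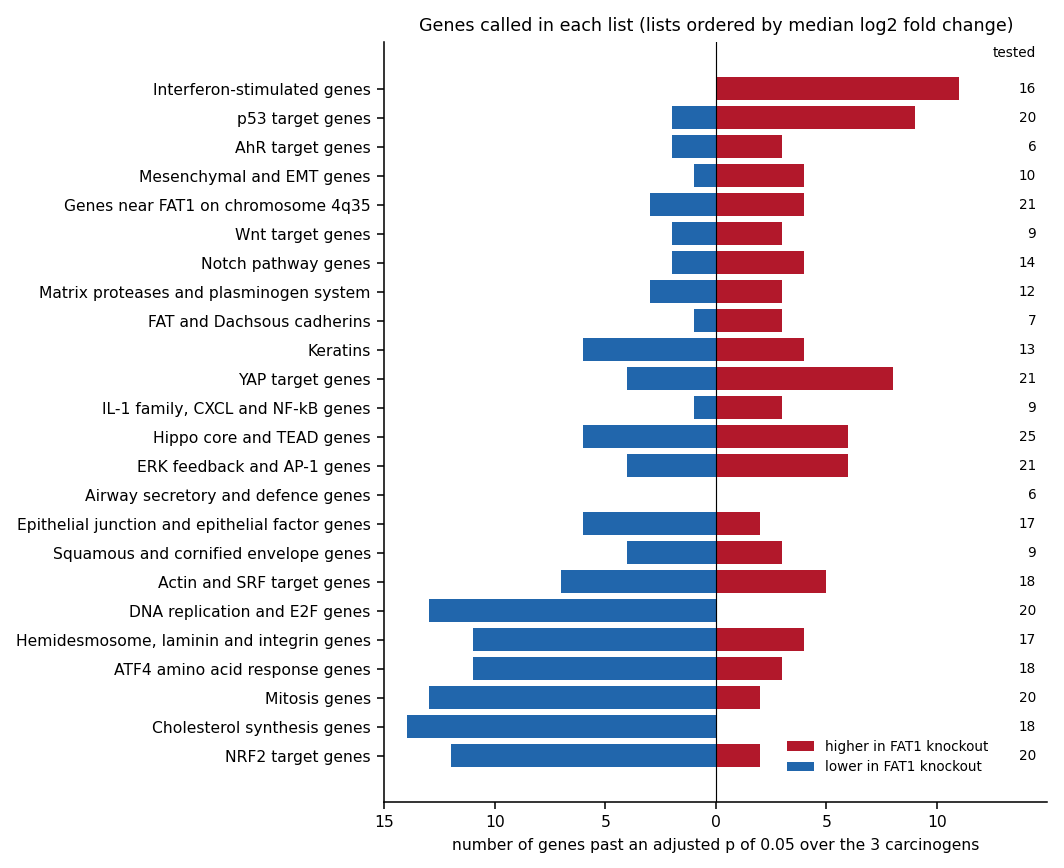
Bars give the number of genes of each list past an adjusted p of 0.05 over the 3 carcinogens, higher in FAT1 to the right and lower to the left, with the number tested at the right edge. Interferon-stimulated genes at the top have 11 higher and 0 lower of 16, and cholesterol synthesis and NRF2 target genes at the bottom have 14 of 18 and 12 of 20 lower.

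Few genes were shown to differ between FAT1 and GFP cells by an amount that depended on the carcinogen. The test that the 3 differences are equal (limma F test on the interaction) passed for 39 genes (0.281%), 29 of which also passed over the 3 carcinogens. Without replicate 1 of GFP with BaP it passed for 21 genes. Although 2388 genes passed with exactly 1 carcinogen, a difference from the other carcinogens was shown for 8 of these, 2 with CSC (0.0144%, both lower), 6 with BaP (0.0433%, 4 of them higher, 0.0289%) and 0 with NNK (0%). Over all genes the difference of 1 carcinogen from the mean of the others passed for 8 genes with CSC (0.0577%), 24 with BaP (0.173%) and 21 with NNK (0.152%). The CSC calls were 1 positive (0.00721%) and 7 negative (0.0505%), the BaP calls 13 (0.0938%) and 11 (0.0794%), and the NNK calls 13 (0.0938%) and 8 (0.0577%). With each criterion at an unadjusted p of 0.05 the limma counts were 293, 391 and 329. At the adjusted threshold, where limma gave 0 genes with NNK alone, edgeR gave 2 and DESeq2 gave 0. Past the threshold in opposite directions with different carcinogens were 7 genes, among them CYP1A1, THBS1 and RPPH1. The genes of this and the next 4 paragraphs that belong to no list were named after their values were seen.

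CYP1A1, the P450 enzyme that oxidises BaP and the standard readout of AhR, had the lowest interaction p among protein-coding genes. With CSC the FAT1 samples had log2 CPM of 9.67, 9.45 and 9.58 and GFP 9.03, 9.13 and 8.73. With BaP they had 9.72, 9.72 and 9.52 against 8.65, 8.60 and 8.59. With NNK all samples were lower, and FAT1 lay below GFP, at 6.06, 5.87 and 5.81 against 6.50, 6.60 and 6.37. The FAT1 difference was 0.58 with CSC (SE 0.07), 1.06 with BaP (SE 0.08) and -0.63 with NNK (SE 0.20), the interaction had a limma adjusted p of 1.42e-14, and with DMSO the difference was -0.02 (SE 0.46, limma adjusted p = 0.984) at 5 to 11 reads per sample. The fit over the 3 carcinogens gave 0.69, since the many reads with CSC and BaP weigh most. CYP1B1, a P450 under the same receptor, followed: 0.64 with CSC, 0.47 with BaP, -0.16 with NNK and -0.05 with DMSO (interaction adjusted p = 3.43e-07, limma). Of the other AhR targets, the repressor AHRR rose (0.58), TIPARP did not pass (0.06), and ALDH3A1 (-1.42) and NQO1 (-1.35) fell, for a count of 3 higher and 2 lower of 6 tested. Over all genes 19.8% rose and 21.1% fell. A stretch of the CYP1A1 promoter is shown for its receptor element, GCGTG in capitals, 57 bases before the start. It is a short motif found in 3 of 6 AhR targets and 31.9% of all promoters.
CYP1A1, chr15:74725556-74725610, minus strand: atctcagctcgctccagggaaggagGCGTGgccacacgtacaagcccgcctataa

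Cholesterol genes differed between carcinogens in a shared way: 5 of the 18 passed the interaction test, where 0.281% of all genes did. Each of the 5 was lower in FAT1 with CSC and BaP and less so, or higher, with NNK. HMGCS1, which makes HMG-CoA from acetyl units, had log2 CPM of 7.26, 7.25 and 7.38 in FAT1 and 7.95, 8.07 and 7.79 in GFP with CSC. It had 7.50, 7.54 and 7.51 against 8.39, 8.21 and 8.39 with BaP, and 8.52, 8.81 and 8.79 against 8.58, 8.67 and 8.72 with NNK. The groups were separate with CSC and BaP and overlapped with NNK, and the differences were -0.66, -0.84 and 0.09 (SE 0.11, 0.11 and 0.09, interaction limma adjusted p = 2.94e-05). The level in FAT1 samples was higher with NNK than with CSC or BaP, by more than the level in GFP samples was. INSIG1, which holds back the regulator SREBP, gave -0.64, -1.0 and 0.01, SQLE -0.79, -0.83 and -0.08, and FDFT1 -0.73, -0.88 and -0.36. Members that fell with NNK as well were IDI1 (-0.71), MSMO1 (-0.59), MVD (-0.84) and LSS (-0.75). List medians were -0.59, -0.74 and -0.26, and 13, 14 and 8 members fell, while with NNK 1 rose. Over all genes 13.3%, 11.3% and 9.89% fell, and 7.40% rose with NNK. With DMSO, in samples that share none of these 18, 12 members fell and 0 rose (median -0.35), with HMGCS1 at -0.51. There 14.9% of all genes fell and 12.5% rose. The fatty acid desaturase SCD, no member of the list, fell by 0.62 with BaP, 0.22 with CSC and 0.19 with NNK.

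**Figure D4:**
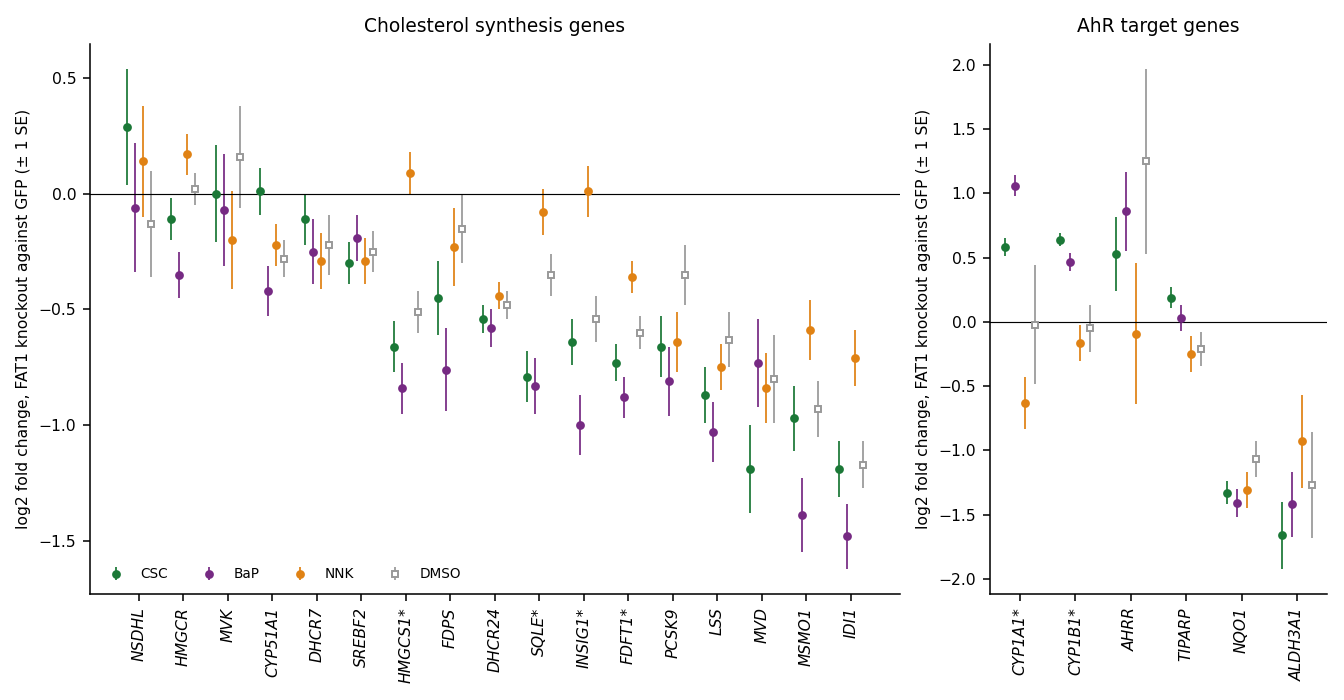
Log2 fold change of FAT1 against GFP with 1 SE for 17 of the 18 cholesterol synthesis genes (left) and AhR target (right) with CSC, BaP, NNK and DMSO. Stars mark genes past 0.05 in the test that the CSC, BaP and NNK values are equal. HMGCS1, INSIG1 and SQLE lie below 0 with CSC and BaP and at -0.08 to 0.09 with NNK, and CYP1A1 and CYP1B1 lie above 0 with CSC and BaP and below it with NNK.

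The other genes past the interaction test included structural and housekeeping RNAs. PLEC rose most with BaP (0.65, against 0.30 and 0.28), SLC7A5 least with NNK (0.17, against 0.53 and 0.54), and THBS1, a matrix protein and integrin ligand, went from -0.34 with CSC to 0.24 with BaP and 0.44 with NNK. The NRF2 target TXNRD1 was -0.63 with CSC, -0.44 with BaP and -0.14 with NNK, and KRT17 -1.01, -0.57 and -0.68. The non-coding RNAs RPPH1 (-0.02, 0.31 and -0.41), RMRP (0.31, 0.44 and -0.17) and the mitochondrial ribosomal RNA RNR2 (0.14, 0.09 and 0.60) passed as well. RPPH1 and RMRP are the RNA parts of ribonuclease P and of its relative RNase MRP. RMRP and RNR2 did not pass with DESeq2 (adjusted p of 1 for both). Of the genes changed with CSC alone the spectrin SPTAN1 had -0.20, 0.09 and 0.01. Those changed with BaP alone included JUND (0.24, 0.83 and 0.10), LRP1 (-0.20, 0.59 and -0.27), the actin bundler FSCN1 (-0.15, 0.39 and -0.03), the desmosomal cadherin DSG2 (0.03, -0.35 and 0.06) and PTGES3 (0.11, -0.35 and 0.29). FSCN1 and PLEC each lost the interaction call without replicate 1 of GFP with BaP (limma adjusted p = 0.266 and 0.452), PLEC also without replicate 1 of FAT1 with BaP (0.365), and with correction for GC content and length the BaP difference of FSCN1 was -0.09.

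With DMSO in place of a carcinogen, 3842 of 14021 genes (27.4%) passed between FAT1 and GFP, 1751 higher (12.5%) and 2091 lower (14.9%). The difference under carcinogens was shown to differ from that with DMSO for 2 genes (0.0143%, limma contrast over 24 samples), 1 in each direction (0.00713%). The values over the carcinogens are from the fit of 18 samples and the differences from that of 24, so they do not subtract exactly. PHGDH, the first enzyme of serine synthesis, was -0.76 over the carcinogens and -0.21 with DMSO, a difference of -0.53 (SE 0.11, limma adjusted p = 0.0342). HSP90AA1, a chaperone, was -0.18 over the carcinogens and -0.37 with DMSO, a difference of 0.23 (SE 0.04, limma adjusted p = 0.0273). By carcinogen it was -0.22 with CSC, -0.27 with BaP and -0.01 with NNK (interaction limma adjusted p = 0.0202). In the test against DMSO edgeR and DESeq2 called 0 genes, and leaving out single libraries gave 0 to 2, so neither call against DMSO held throughout. At an unadjusted p of 0.05 limma counted 905 genes. With DMSO, FAT1 was at -1.80, CCND2 at 4.0, IFI44 at 4.29, KRT14 at -3.13, FN1 at 1.4, TOP2A at -0.81, NQO1 at -1.07 and PSAT1 at -1.64. Of the lists, 10 interferon-stimulated genes rose and 1 fell (median 1.99), 12 mitosis genes fell and 1 rose (median -0.36), and 7 NRF2 targets fell and 1 rose (median -0.30), where 14.9% of all genes fell and 12.5% rose.

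The CDKN2A knockout line, made with CRISPR like the FAT1 line, differed from FAT1 in 7771 of 14261 genes (54.5%), 3841 higher (26.9%) and 3930 lower (27.6%) in FAT1. This comparison shares its FAT1 samples with the main one, so values are given side by side and not as support. Of the 12 largest rises 8 were also higher in FAT1 than in CDKN2A, CCND2 by 5.73 and CYBA by 3.48, while FKBP10 (-0.53), SMARCA1 (-0.47) and HERC5 (-0.50) were among the other 4, which were lower. Of the 12 largest falls 10 were also lower, KRT14 by 2.84 and ICA1 by 4.13, and KLK5 (-0.16) and GBP6 (-0.20) did not pass. Of the cholesterol genes 16 were lower and 1 higher (median -0.62), and of the NRF2 targets 14 lower and 3 higher (median -0.93).

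Position on the chromosome was not used to choose the genes. Among 21 tested neighbours of FAT1 on 4q35, 4 rose and 3 fell (median 0.24), where 19.8% of all genes rose and 21.1% fell. The RNA receptor TLR3 rose by 1.80 from counts of 0 to 3 to counts of 1 to 7, ACSL1 rose by 0.35, and ZFP42 (-1.99), FRG1 (-1.07) and STOX2 (-1.07) fell. FRG1 has close copies elsewhere in the genome, so its reads are uncertain. Against CDKN2A cells 17 of the 21 neighbours were lower and 2 higher (median -0.75), beside 27.6% lower and 26.9% higher over all genes. The median of all 472 tested genes of chromosome 4 was -0.65 against CDKN2A and -0.11 against GFP. Chromosome medians of the difference from GFP ran from -0.51 on X, where 51.7% of 418 tested genes fell, through -0.28 on 13, -0.27 on 6 and -0.26 on 15, to 0.20 on 17, 0.28 on 16 and 0.29 on 22. On chromosomes 13, 14 and 15 between 36.2% and 40.4% of genes fell and at most 3.65% rose. On 22, 36.7% rose and 6.75% fell. Against CDKN2A cells the medians were -0.48 on X, -0.23 on 6, -0.13 on 14 and 0.15 on 16. There they were 0.18 on 13, 0.01 on 15, 0.02 on 17 and -0.14 on 22, so not every shift was shared. In the alternative settings the median against GFP lay between -0.52 and -0.25 on X and between -0.26 and -0.19 on 15.

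The zinc finger genes of chromosome 19, mostly repressors of the KRAB family that sit in clusters, were looked at after 5 of them appeared among the largest falls. Of 250 tested 155 fell (62.0%) and 3 rose, with a median of -0.65, and 78 of the falls were over 2-fold. Over all genes 21.1% fell and 19.8% rose. With all 3 carcinogens 50 fell and 0 rose, beside 5.67% and 3.52% of all genes. Zinc finger genes on other chromosomes did not show this, with 56 of 272 lower (20.6%), 60 higher and a median of 0.06, nor did the other genes of chromosome 19, with 108 of 738 lower (14.6%) and a median of 0.04. With genes under a mean count of 10 left out, the share was 104 of 152 (68.4%). The median there was -0.56, and 37 of the falls were over 2-fold. What part read depth has in the pattern was not tested. Without the shallowest FAT1 and GFP libraries 150 fell, and with all libraries thinned 102 fell. With DMSO 125 of the 250 genes fell and 1 rose (median -0.67), beside 14.9% and 12.5% of all genes. Against CDKN2A cells 82 were lower and 15 higher (median -0.26), where 27.6% of all genes were lower and 26.9% higher. Many of these genes share long stretches of sequence, so reads of single members are less certain than the count over the group.

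**Figure D5:**
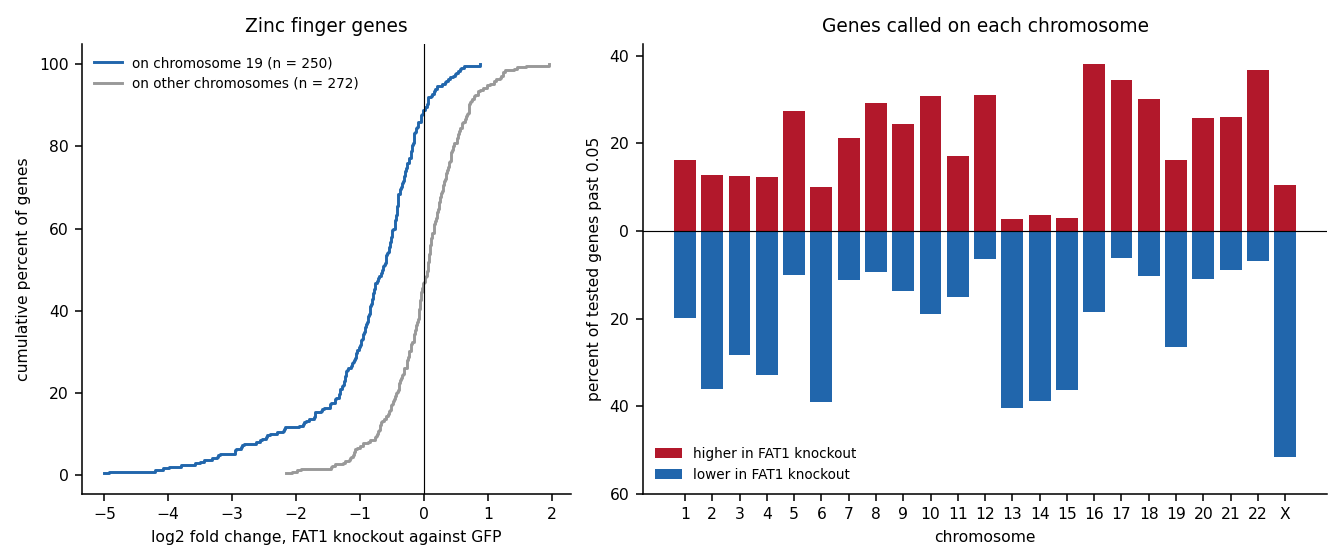
Left, cumulative percent of zinc finger genes by log2 fold change of FAT1 against GFP over the 3 carcinogens, on chromosome 19 (blue, n = 250) and on other chromosomes (grey, n = 272). Right, percent of the tested genes of each chromosome past 0.05, higher in FAT1 upwards and lower downwards. The chromosome 19 curve lies left of the other (medians -0.65 and 0.06), and X has the largest share of lower genes (51.7%).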

How the data were processed

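The authors trimmed adapters with cutadapt 1.12, aligned single-end reads to hg19 with STAR 2.5.2b and assigned them to RefSeq genes by featureCounts, per the labels and the methods of the study. The deposited values are whole-number counts per gene and sample with no normalization. Whether counting used strand is not given in the sources used here. Samples were grouped by their labels.

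Counts of the 18 samples were filtered to genes with a mean count above 1, scaled with TMM (edgeR 4.0.16, R 4.3.3) and tested 2-sided, after the voom transformation, by the moderated test of limma 3.58.1 (Benjamini-Hochberg over all genes tested, threshold 0.05). Genotype with carcinogen as covariate gave the effect over the 3 carcinogens, and a mean for each of the 6 combinations gave the effect within a carcinogen and the interaction. A gene changed with 1 carcinogen alone passed there, not with the others, and for the difference from their mean. The comparison with DMSO was fitted on 24 samples and that with CDKN2A on 18. The model fits and the GC correction were tested on simulated counts, and the other steps were not.

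Depth was 338978 to 1517412 counted reads per sample. Floors in CPM cover counting error only, since reads carried no molecular identifiers. Genes are named if they are FAT1 or of its family, among the 12 largest rises or falls (mean count of at least 10, past 0.05 with each carcinogen, no overlap within any), changed with 1 carcinogen alone, AhR targets, or among the 4 largest changes per direction of a gene list. Other list members are named outside this rule, among them ISG15, MX1, DDX58, IRF7, KRT5, KRT6A, GCLC and SLC7A11. So are members past the test of a difference between carcinogens or from DMSO. The members and lists were chosen with earlier results of these data known, and lists come from general knowledge. Some genes that the rule names are counted but not reported here.

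Other settings tried were DESeq2 1.42.0, its size factors, the quasi-likelihood test of edgeR, a mean count of at least 10, no filter, the replicate number as a block, correction for GC content and exon length (loess span 0.3), each carcinogen alone, all 95 samples, and leaving out each library. Thinning, leaving out the shallowest libraries, and the genes of the GC correction without it were chosen after seeing the data. Positions are from GENCODE on GRCh37 (89.7% of symbols matched), promoters from RefSeq on GRCh38.p14.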

Additional observations from a re-analysis of the deposited data

Results flagged for a closer look

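Results listed here are those in which a test of the difference itself showed that the difference between FAT1 and GFP cells differed between carcinogens, or between carcinogens and DMSO. Adjusted p-values are from limma.

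The interaction of genotype and carcinogen passed for 39 genes. Among the AhR targets CYP1A1 had an interaction adjusted p of 1.42e-14 and CYP1B1 3.43e-07, both higher in FAT1 with CSC and BaP and not with NNK. Among the cholesterol genes HMGCS1 had 2.94e-05, INSIG1 0.000166, SQLE 0.00184 and FDFT1 0.03. CYP1A1, CYP1B1, HMGCS1 and INSIG1 stayed past 0.05 in all 18 fits that left out a library and in all 12 alternative settings, SQLE in all but the thinned counts (0.0868), and FDFT1 lost the call in 9 of the 18 and 5 of the 12.

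SCD and SLC7A5 each had 1.65e-07, PLEC 0.000507, THBS1 0.00074, KRT17 0.0277 and TXNRD1 0.0459. SCD kept the call in all 18 fits that left out a library and all 12 settings. SLC7A5 lost it with all 95 samples (0.115) and THBS1 in 3 of the 12 settings (1 with DESeq2). PLEC lost it in 2 of the 18 fits and 5 of the 12 settings, KRT17 in 9 and 6, and TXNRD1 in 12 and 8. The non-coding RNAs RPPH1, RNR2 and RMRP had 3.57e-15, 3.09e-09 and 2.94e-05. With DESeq2 the adjusted p was 1 for RNR2 and RMRP, and with all 95 samples fitted it was 0.0748 for RPPH1.

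Of the genes changed with CSC alone SPTAN1 had an interaction adjusted p of 0.0191. Of those changed with BaP alone FSCN1 had 0.00426 and JUND 0.0373, and LRP1, DSG2 and PTGES3 each had 0.0384 for the BaP difference against the mean of the others. In the 18 fits that left out a library and the 12 settings, SPTAN1 lost the call in 5 and 8, FSCN1 in 1 and 5, JUND in 12 and 7, LRP1 in 8 and 6, DSG2 in 10 and 7, and PTGES3 in 10 and 5.

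Against DMSO 2 genes differed, HSP90AA1 with an adjusted p of 0.0273 and PHGDH with 0.0342. HSP90AA1 lost the call in 19 and PHGDH in 8 of 24 fits that left out a library.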

How the results depend on the processing

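Leaving out single libraries gave 5325 to 5647 genes over the 3 carcinogens, 2510 to 3379 with CSC, 1713 to 2987 with BaP, 1521 to 2443 with NNK, 924 to 1229 with all 3, 21 to 53 for the interaction, 0 to 3 with CSC only, 1 to 7 with BaP only, 0 to 3 with NNK only, 0 to 2 against DMSO and 7383 to 7695 against CDKN2A. Thinned to the shallowest library, the counts were 3783 over the carcinogens, 1241 with CSC, 1570 with BaP, 1275 with NNK, 490 with all 3, 16 for the interaction, 1 with CSC only and 2 with BaP only, at fewer reads. DESeq2 gave 1970 with CSC, 1848 with BaP, 1530 with NNK, 823 with all 3, 11 for the interaction, and 0 with CSC only, with BaP only and against DMSO. edgeR gave 0 with CSC only, 2 with NNK only and 0 against DMSO. DESeq2 size factors and a mean count of at least 10 each gave 0 with CSC only and 1 against DMSO. No filter gave 4 with CSC only, 3 with BaP only, 1 with NNK only and 1 against DMSO. The fit of all 95 samples gave 1 with CSC only, 0 with BaP only, 1 with NNK only, 15 for the interaction and 0 against DMSO. Correction for GC content and length gave 1 with BaP only and 0 against DMSO, and its genes without it 1 with CSC only. Leaving out the shallowest FAT1 and GFP libraries gave 1 with NNK only. The cause of these differences was not tested.

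Replicate numbers did not pair the samples: the 9 correlations of deviations between same-numbered FAT1 and GFP samples lay between -0.0236 and 0.0202, and 4 of 9 samples correlated best with their own number. With the replicate number as a block 5662 genes passed over the carcinogens, 81 the interaction and 10 with BaP only, and the block with GC correction gave 0 with BaP only and 0 against DMSO.

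The direction turned for CELSR3 and FSCN1. CELSR3 over the 3 carcinogens (0.04) was -0.07 with GC correction, -0.06 with the block and GC correction, -0.07 without the shallowest libraries and between -0.03 and 0.19 when single libraries were left out, below 0 in 4 of 18 fits. FSCN1 with BaP (0.39) was -0.09 with GC correction, with and without the block. For the differences of 164 named genes over the 3 carcinogens, 4692 of the repeated values kept direction and side of the threshold, and 180, in 33 genes, lost the call. Of lists with unequal counts, the squamous one (3 higher, 4 lower) had 3 and 1 when thinned, and the 4q35 one (4 and 3) had 2 and 3. Over all settings but those that left out a library, 6 to 12 interferon-stimulated genes were higher (6 at a mean count of at least 10, where fewer are tested) and 13 to 15 cholesterol genes lower. Depth limits genes near 3 reads per sample, and a difference there was not detectable in many.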
